A study of Gallus gallus with 50 samples.

Results

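The globin genes examined here are the genes of the deposited table that lie inside the alpha-globin locus on chromosome 14 (12503627 to 12511196) or the beta-globin locus on chromosome 1 (197270000 to 197305000), on GRCg6a. The rule found 8 of the 24356 genes, 3 in the alpha locus and 5 in the beta locus. Both loci were picked from measured values. ENSGALG00000043234 of the alpha locus was lower in GFP-positive cells on average over the stages. ENSGALG00000017347 of the beta locus was higher at HH16 than at HH10 in GFP-positive cells. The difference between the fractions and the stage changes of GFP-positive cells are therefore given as descriptions, without a test. The stage changes of GFP-negative cells were tested, although these libraries also entered the difference between the fractions.

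Chicken embryos were electroporated with ptk-TFAP2AE1-GFP, a reporter in which an enhancer of the transcription factor gene TFAP2A drives GFP, and were incubated outside the egg. Every group carried the reporter. The cranial part of about 20 heads was pooled for each sample and separated by cell sorting into GFP-positive cells, which the labels call neural crest (groups NC_), and GFP-negative head cells (groups WE_), and polyadenylated RNA was sequenced. The stages were Hamburger-Hamilton (HH) 6, 8, 10, 12, 14 and 16, the standard morphological stages of the chick embryo. Of 50 libraries the authors kept 42, with 3 of each fraction at HH6, HH8, HH10 and HH14, 4 at HH12 and 5 at HH16, and 4869937 to 29316689 counted reads each. The replicate numbers follow the labels' order and have gaps where a library was not kept. The labels do not say whether the libraries of a group came from separate days or flocks, and p-values therefore reflect only how much these libraries vary, which may be technical. The labelled cell types were not checked against marker genes, because neither the deposited tables nor the RefSeq table pair the Ensembl identifiers with symbols.

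Haemoglobin, the oxygen carrier of red blood cells, joins alpha-type and beta-type globin chains around heme groups. The chains are encoded by separate gene clusters, in which some members are used in embryonic and others in later red cells. In birds the first red cells form in the blood islands of the yolk sac, outside the head, and reach the embryo when the circulation starts. They keep their nucleus, and their messenger RNA is dominated by globin transcripts. In the RefSeq annotation of another assembly, GRCg7b, the alpha cluster holds HBZ, HBAD and HBA1, and the beta cluster holds HBE, HBBA, HBE1 and HBBR. Which identifier corresponds to which of these symbols was not established, so that the genes are called by identifier and no embryonic or adult role is given to any of them.

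The alpha-locus genes lie on the plus strand and have 3 exon entries each. ENSGALG00000023740 (12503627 to 12505300, summed exon length 669 bases) took 444815 reads over the 42 libraries, ENSGALG00000031597 (12507333 to 12508287, 546 bases) took 120381, and ENSGALG00000043234 (12510348 to 12511196, 597 bases) took 216787. The main beta-locus genes lie on the minus strand. ENSGALG00000035309 (197275578 to 197277208, 3 exon entries, 536 bases) took 204394 reads, and ENSGALG00000017347 (197288212 to 197289402, 3 exon entries, 540 bases) took 295636. These genes carried nearly all globin reads.

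The other beta-locus genes were low. ENSGALG00000047152 (197279998 to 197281946, minus strand, 4 exon entries, 745 bases) took 2668 reads in 19 of the 42 libraries. ENSGALG00000028273 (197283325 to 197284551, minus strand, 3 exon entries, 576 bases) took 34 reads in 4 libraries, all GFP-negative at HH14 or HH16. ENSGALG00000052767 (197280001 to 197281526, plus strand, 1 exon entry, 1526 bases) overlaps ENSGALG00000047152 on the opposite strand and took 13 reads in 3 libraries, also GFP-negative at HH14 or HH16. Counting was stranded, so that these overlapping genes were counted apart. The last 2 genes did not pass the filter on low counts and were not tested. Reads that map to several places were not counted. Globin genes resemble each other, so that levels of members with near-identical stretches may be understated, which was not tested.

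The genes next to the loci were at other levels. On chromosome 14 the neighbours just outside the locus were ENSGALG00000007456, at 21.4 ± 3.87 CPM (read counts scaled to a fixed library total; SD, n = 3) in GFP-negative cells at HH10 and 26.5 ± 6.13 CPM (n = 5) at HH16, and ENSGALG00000026188, at 24.2 ± 7.04 and 21.9 ± 6.51 CPM. On chromosome 1 the nearest genes, ENSGALG00000030885 and ENSGALG00000017343, took 8 and 51 reads over the 42 libraries. Within 100000 bases of the loci lay 24 other genes, 4 at the alpha and 20 at the beta locus, of which 4 and 11 were tested; none of these 15 genes passed the test between HH10 and HH16 in GFP-negative cells (edgeR's quasi-likelihood test, Benjamini-Hochberg adjusted over all genes tested). With 4.89% of all tested genes called in either direction, a count of 0 among 15 is near that share.

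In GFP-negative cells the globin genes rose from low levels at HH10 and showed some of the largest increases of all genes by HH16. The summed level of the 8 genes was 1.75, 6.88 and 37.4 CPM at HH6 and 4.37, 18.5 and 14.9 CPM at HH8. In the 3 HH10 libraries it was 17.4, 8.26 and 8.69 CPM, all below the highest HH6 library. At HH12 it was 2.14, 27.2, 370.5 and 870.7 CPM, and at HH14 it was 226.4, 20336 and 699.7 CPM. At HH16 it was 28970, 6466, 2337, 2317 and 923.3 CPM. Every HH16 library was above every HH10 library, whereas HH12 overlapped both HH10 and HH14, and HH14 overlapped HH16. The libraries of one stage differed widely. The highest HH14 library was 89.8 times the lowest, and the highest HH16 library was 31.4 times the lowest.

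**Figure D1:**
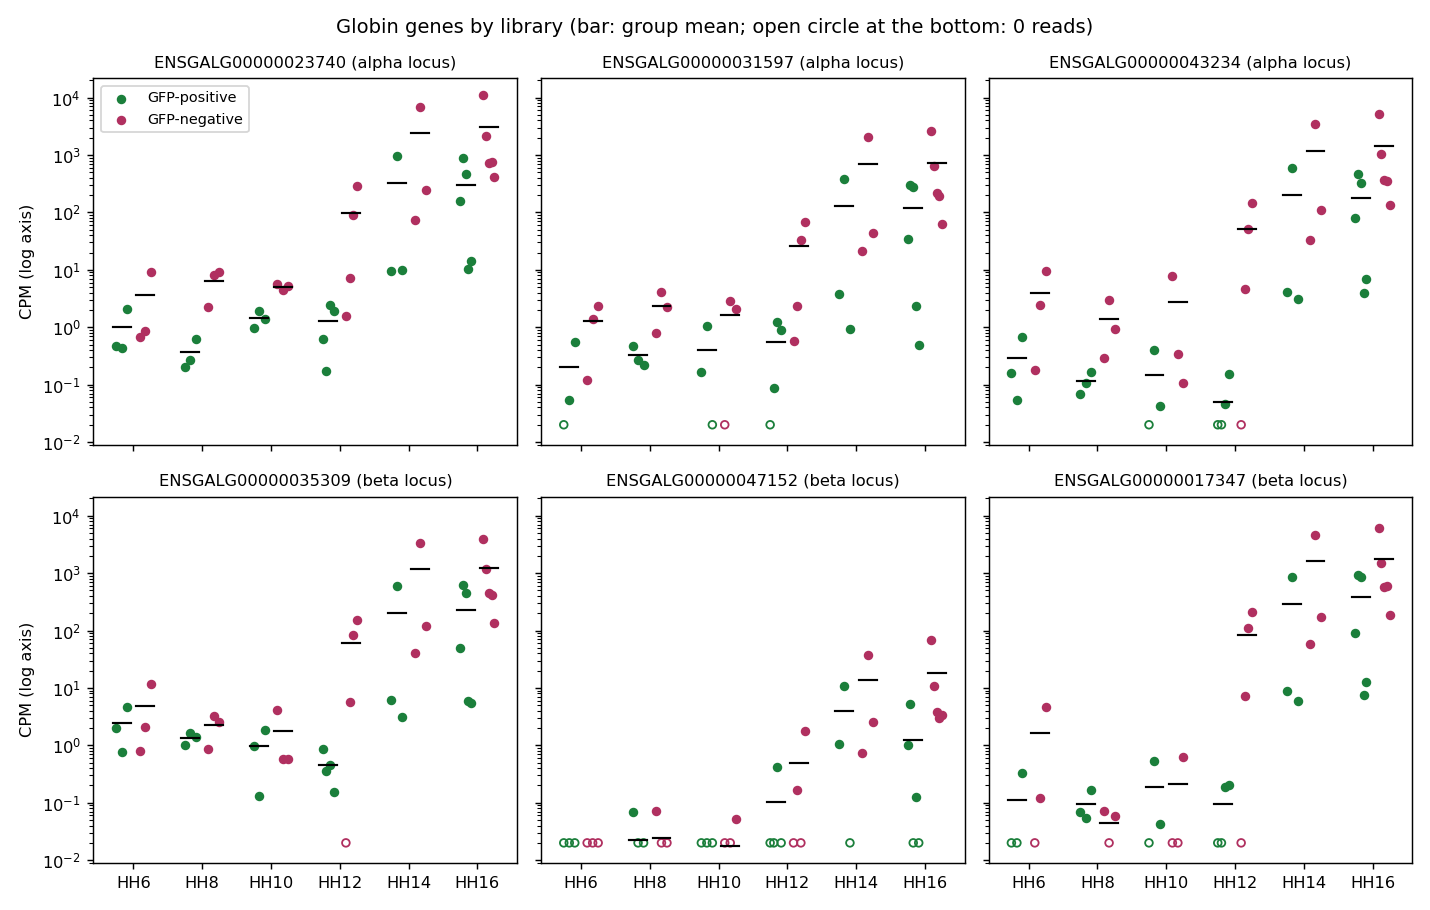
Level of the 6 tested globin genes in each of the 42 kept libraries, in CPM on a log axis, by stage; green points are GFP-positive and red points GFP-negative libraries, bars are group means, and open circles at the bottom are libraries with 0 reads. GFP-negative libraries at HH16 all lie above those at HH10, and the points of one group spread widely at HH12, HH14 and HH16.

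ENSGALG00000023740 was the most abundant alpha-locus gene. In GFP-negative cells it stood at 5.58, 4.49 and 5.24 CPM at HH10 and at 11053, 2115, 729.9, 769.5 and 405.5 CPM at HH16. The groups did not overlap, and the log2 fold change was 9.21 ± 2.28 (approximate SE, adjusted p = 0.0141). Errors of edgeR's log2 fold changes are the absolute log2 fold change divided by the square root of the F statistic. ENSGALG00000031597, the least abundant of the 3, stood at 0, 2.85 and 2.095 CPM at HH10 and at 2579, 636.6, 216.1, 193.4 and 63.3 CPM at HH16, and its log2 fold change was 8.65 ± 2.41 (adjusted p = 0.0312). ENSGALG00000043234 stood at 7.65, 0.338 and 0.105 CPM at HH10, where one library was far above the others, and at 5237, 1047, 359.7, 346.6 and 132.8 CPM at HH16. Its log2 fold change was 9.32 ± 2.52 (adjusted p = 0.0261). For all of these genes the lowest HH16 library was above the highest HH10 library.

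The beta-locus genes changed by as much or more. ENSGALG00000035309 stood at 4.15, 0.580 and 0.576 CPM at HH10 and at 3913, 1156, 448.7, 409.3 and 133.3 CPM at HH16, a log2 fold change of 9.67 ± 2.46 (adjusted p = 0.0172). ENSGALG00000017347 had 12 reads in all at HH10, with 0, 0 and 0.628 CPM, and stood at 6118, 1499, 578.3, 595.2 and 185.0 CPM at HH16. Its log2 fold change of 12.78 ± 2.88 (adjusted p = 0.00693) was the highest of the 15737 genes tested. This gene could enter the test only through libraries of HH12 and later, so that its rank is not support for its change. The low ENSGALG00000047152 had 1 read at HH10 and stood at 68.95, 10.9, 3.82, 2.98 and 3.41 CPM at HH16 (adjusted p = 0.0340). Its ratio of summed reads was 739.0, with a 95% counting interval of 132.4 to 29209, and was thus poorly determined. All adjusted p-values here are those of edgeR's quasi-likelihood test with Benjamini-Hochberg adjustment over all 15737 genes.

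All 6 members that passed the filter on low counts rose between HH10 and HH16 in GFP-negative cells, where 1.77% of all tested genes rose (279 genes). This count is not support for a change of the loci as a whole. ENSGALG00000017347 and ENSGALG00000047152 reached the filter's level, 0.577 CPM in 3 libraries, only with the libraries of HH12 and later. They could enter the test only because they were high there. The other 4 reached it with the libraries of HH6 to HH10 alone. Their log2 fold changes ranked 4 (ENSGALG00000035309), 9 (ENSGALG00000043234), 10 (ENSGALG00000023740) and 17 (ENSGALG00000031597) of 15737. No HH10 library overlapped an HH16 library for any of these 4, which held for 5.86% of all tested genes in that direction. Of these 4, ENSGALG00000043234 chose the alpha locus by its difference between the fractions. That difference used the same GFP-negative libraries, so that the rank and separation of this gene are not support for its change. The untested ENSGALG00000028273 and ENSGALG00000052767 had 0 reads at HH10 and 25 and 12 reads at HH16.

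These calls rested on the HH10 libraries, of which there were 3. With single libraries left out, the members that reached the filter with the HH6 to HH10 libraries alone passed in 4 to 6 of 8 fits. ENSGALG00000017347 passed in all 8. It could enter the test only through libraries of HH12 and later, so that its passing is not support for its change. Without WE_10 replicate 3 or replicate 4 it was the 1 call left, and without WE_10 replicate 2 there were 2 calls. Without WE_16 replicate 1, the highest library, ENSGALG00000031597 (log2 fold change 7.25, adjusted p = 0.0557) and ENSGALG00000047152 (7.56, adjusted p = 0.0757) missed the threshold. With limma voom in place of edgeR only ENSGALG00000047152 passed. This gene too could enter the test only through libraries of HH12 and later, so that its passing is not support for its change. The other 5 genes had voom log2 fold changes of 8.11 to 13.09 with adjusted p-values of 0.148 to 0.285. With DESeq2, which called more of all tested genes in this comparison than edgeR, all 6 passed.

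**Figure D2:**
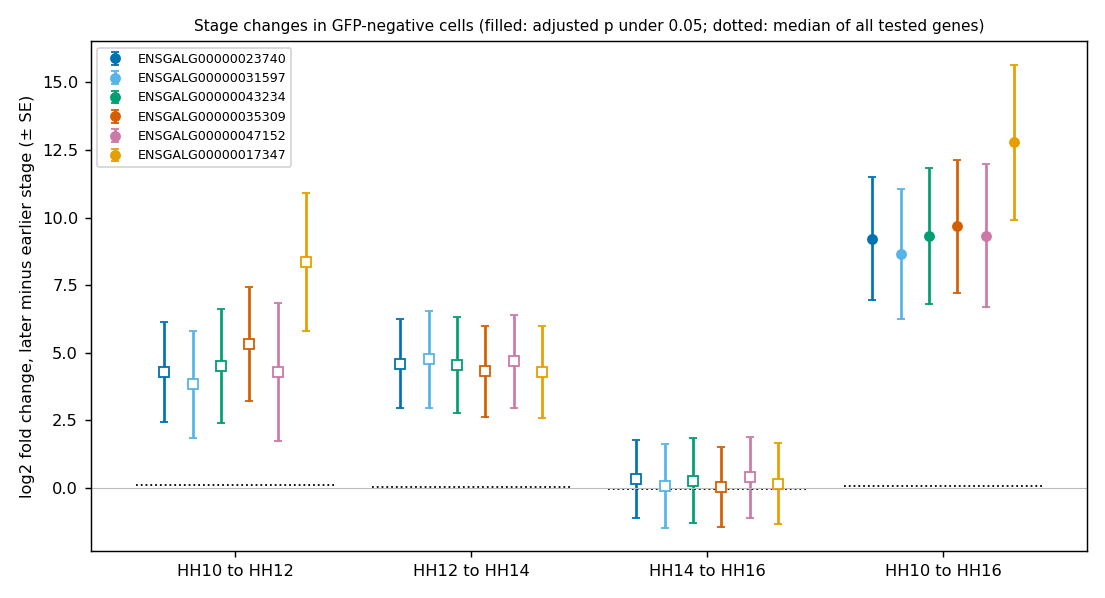
Log2 fold changes of the 6 tested globin genes in GFP-negative cells over single stage steps and over HH10 to HH16. Error bars (SE) are approximate, the absolute log2 fold change divided by the square root of edgeR's F statistic. Filled points passed an adjusted p of 0.05 and dotted lines are medians of all tested genes. The single steps from HH10 to HH12 and from HH12 to HH14 lie between 3.83 and 8.35 without passing, the step from HH14 to HH16 lies near 0, and HH10 to HH16 lies between 8.65 and 12.78 with all 6 genes passing.

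The single steps did not pass the test for any member. From HH6 to HH8, where 0.0572% of the genes were called, the log2 fold changes of the 5 members with more than 3 reads in either group lay between -4.10 and 1.25. From HH8 to HH10, with 0.0254% called, those of the same 5 lay between -0.59 and 2.30. From HH10 to HH12 the members' log2 fold changes lay between 3.83 and 8.35. Their adjusted p-values were 0.465 to 0.755 in edgeR, which called 0.0% of the genes in this step (0 genes, and 1170 at an unadjusted p under 0.05). DESeq2 called 17 genes in this step, and of the members ENSGALG00000017347 (8.57 ± 2.01, adjusted p = 0.0238), while limma voom called 9 genes and no member. That member could enter the test only through libraries of HH12 and later. From HH12 to HH14 the values were 4.28 to 4.76, with adjusted p-values of 1.0, in a step where edgeR, DESeq2 and voom called 0 genes and 253 genes had an unadjusted edgeR p under 0.05. The size of this step depended on single libraries. When single libraries were left out, the members' lowest values ran from 0.305 for ENSGALG00000031597 to 1.64 for ENSGALG00000047152, and no member passed.

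From HH14 to HH16 the members' log2 fold changes were small, at 0.03 to 0.38, with approximate standard errors of 1.45 to 1.57 (edgeR's adjusted p-values of 0.994 to 0.997). In this step 0.972% of the genes were called. The wide errors mean that changes of either sign could not be told from 0. Without WE_14 replicate 2, the highest HH14 library, the 6 values were 3.44 to 4.52, and without WE_16 replicate 1 they were -1.36 to -1.11. None of these passed the test.

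The labels open each library's description with a set number. Among the kept libraries, only 1 set held both HH10 and HH16 libraries of GFP-negative cells. Within it the summed globin level was 8.26 and 8.69 CPM at HH10, 870.7 CPM at HH12, 699.7 CPM at HH14, and 2317 and 923.3 CPM at HH16. The HH12 library was thus above the HH14 library and close to the lower HH16 library of its set. Within each of the 3 other sets that reach HH16, the HH16 library was above the HH8 library of the same set, at 28970 against 4.37 CPM, 6466 against 18.5 CPM and 2337 against 14.9 CPM. The order of HH14 and HH16 differed between sets. It was 226.4 against 6466 CPM in one set and 20336 against 2337 CPM in another.

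In GFP-positive cells the same genes were also higher at HH14 and HH16 than at HH10. This change chose ENSGALG00000017347 and is described only. The summed globin level of the kept GFP-positive libraries lay between 0.614 and 8.32 CPM at every stage from HH6 to HH12. At HH14 it was 33.4, 3384 and 22.7 CPM, and at HH16 it was 418.8, 3203, 2376, 30.5 and 39.5 CPM. All HH14 and HH16 libraries thus lay above all earlier kept ones, with a wide spread within each stage. GFP-positive cells at HH12 stayed at 0.614 to 4.80 CPM, whereas 3 of the 4 GFP-negative libraries of that stage lay at 27.2 CPM or above.

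The members' levels in GFP-positive cells showed the same split. ENSGALG00000023740 stood at 0.985, 1.91 and 1.41 CPM at HH10 and at 161.1, 882.7, 462.4, 10.5 and 14.2 CPM at HH16. ENSGALG00000017347 stood at 0, 0.528 and 0.0426 CPM at HH10 and at 91.2, 933.3, 861.1, 7.55 and 12.5 CPM at HH16. ENSGALG00000035309 stood at 0.985, 0.132 and 1.83 CPM at HH10 and at 50.5, 615.9, 451.9, 6.02 and 5.44 CPM at HH16. In each case replicates 2 and 3 were the highest and replicates 4 and 5 the lowest of HH16. Replicates 4 and 5 shared a set number that no other GFP-positive library of HH16 had, so that set and level cannot be told apart there. At HH14 the library of that set had a summed globin level of 22.7 CPM, and replicate 1, of another set, had 33.4 CPM. The part of the set in this split was not tested. ENSGALG00000047152 had 0 reads in all HH10 libraries and 108 at HH16. Of these, 89 came from replicate 2, and replicates 3 and 5 had 0 reads. Summed over the group it was at least 22.2-fold higher with a floor of 3 counts, a bound that covers counting error only. ENSGALG00000028273 and ENSGALG00000052767 had 0 reads in every kept GFP-positive library.

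The GFP-positive fraction held less globin RNA than the GFP-negative fraction on average. This contrast chose the alpha locus and is given without a test. Averaged over the stages, the log2 difference of GFP-positive from GFP-negative cells was -3.28 ± 0.76 for ENSGALG00000023740, -2.98 ± 0.90 for ENSGALG00000031597 and -4.34 ± 1.02 for ENSGALG00000043234 (approximate SE from edgeR's F statistic). In the beta locus it was -2.35 ± 0.78 for ENSGALG00000035309 and -2.75 ± 2.28 for ENSGALG00000017347. Both beta-locus averages came mainly from HH12 and later. ENSGALG00000035309 was at -0.69, -0.72 and -0.52 at HH6, HH8 and HH10, and at -7.17, -2.58 and -2.42 from HH12 to HH16. ENSGALG00000017347 was at -2.93, 1.03 and -0.57 at HH6, HH8 and HH10. For both genes the errors at HH6, HH8 and HH10 were larger than these early values. The alpha-locus genes lay between -4.11 and -1.47 at those stages, with errors of 1.87 to 3.09. For ENSGALG00000023740 and ENSGALG00000031597 the errors at HH6 and HH10 were also larger than the values. ENSGALG00000047152 had groups with 0 reads in every library and was given no average. Without the 3 kept libraries that detected the fewest genes (NC_16 replicate 3, WE_6 replicate 3 and WE_10 replicate 2), the value of ENSGALG00000043234 was -3.625 ± 1.445, and those of the other 4 genes lay between -3.05 and -1.94. When pools entered the fit as a block, ENSGALG00000031597 was at -3.67 and ENSGALG00000017347 at -3.67. In this contrast 8.77% of all tested genes were called lower in GFP-positive cells. In bulk RNA, fewer cells of a type and less RNA per cell cannot be told apart.

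The estimated difference varied between stages and members, which was not tested. ENSGALG00000017347, which had few reads before HH12, differed by a log2 of -9.28 ± 2.42 at HH12, -2.50 ± 1.78 at HH14 and -2.24 ± 1.36 at HH16. For ENSGALG00000043234 the values were -9.47 ± 2.67, -2.56 ± 1.84 and -3.0 ± 1.45. These genes had the largest differences at HH12, where they took 8 and 4 reads in GFP-positive cells. ENSGALG00000031597 was at -5.26 ± 1.96, -2.44 ± 1.82 and -2.61 ± 1.42 in the same order. ENSGALG00000047152, at -1.99 ± 1.78, -1.82 ± 1.71 and -3.83 ± 1.44, differed most at HH16. Libraries of the fractions overlapped for every member at HH12, HH14 and HH16, where 6.27%, 10.5% and 1.45% of all tested genes were lower in GFP-positive cells without overlap. They did not overlap for ENSGALG00000023740, ENSGALG00000031597 and ENSGALG00000043234 at HH8, where 12.6% of all tested genes were so, nor for ENSGALG00000023740 at HH10, where 8.46% were.

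**Figure D3:**
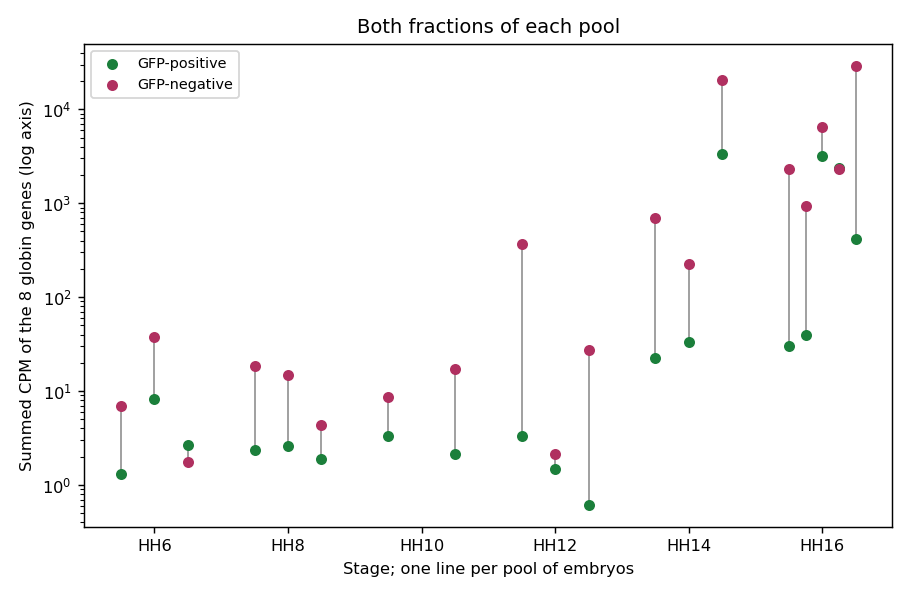
Summed CPM of the 8 globin genes, on a log axis, in the GFP-positive (green) and GFP-negative (red) library of each of the 19 pools of embryos with both libraries kept, by stage; a line joins the fractions of a pool. The GFP-positive library is lower in 17 pools, and the distance between the fractions varies from pool to pool, most of all at HH12 and HH16.

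Sample titles give the fractions of one sort a shared name, taken here as a shared pool of embryos. Both libraries were kept for 19 pools, and the GFP-positive library had a lower sum over both loci in 17 of them. How many of all tested genes were lower in as many pools was not counted. The beta locus alone was higher in NC_6 replicate 1 (259.6% of its partner), NC_8 replicate 1 (113.8%), NC_10 replicate 4 (149.3%) and NC_16 replicate 3 (127.3%). It was also higher in NC_12 replicate 1, with 7 reads against 0, and was lower in the GFP-positive library of all other pools. At HH14 the GFP-positive library held 14.8%, 16.6% and 3.25% of the CPM of its partner. At HH16 it held 1.45%, 49.5%, 101.7%, 1.31% and 4.28%, so that the fractions differed by up to 76.1-fold, in the pool of replicate 4, and hardly at all in that of replicate 3. Of the 8 pools of HH14 and HH16, ENSGALG00000023740 and ENSGALG00000043234 were lower in the GFP-positive library in all 8, which held for 4.05% of all tested genes. The other 4 tested members were lower in 7 each, and how many of all tested genes were so was not counted.

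The pool in which the fractions matched, with 2376 CPM in GFP-positive and 2337 CPM in GFP-negative cells, stood apart in its libraries. Its GFP-positive library, NC_16 replicate 3, had the fewest genes with 10 or more reads of all kept libraries, at 11128 beside a median of 13636, and its set number differs from that of its partner. In that pool ENSGALG00000023740 was at 462.4 against 729.9 CPM and ENSGALG00000017347 at 861.1 against 578.3 CPM, so that members differed in direction. The part of the library's quality in this result was not tested. The highest pool of HH14 was the same in both fractions, at 3384 CPM in GFP-positive and 20336 CPM in GFP-negative cells. At HH16 this did not hold, since the highest GFP-negative library, at 28970 CPM, had a GFP-positive partner at 418.8 CPM.

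Levels of different genes were compared per length. In GFP-negative cells at HH16 the mean levels were 4506 ± 6788 CPM per kilobase for ENSGALG00000023740 (SD, n = 5), 3324 ± 4563 for ENSGALG00000017347, 2386 ± 3616 for ENSGALG00000043234, 2261 ± 2904 for ENSGALG00000035309 and 1351 ± 1926 for ENSGALG00000031597. ENSGALG00000047152 followed at 24.2 ± 38.5 CPM per kilobase, and ENSGALG00000028273 and ENSGALG00000052767 stood at 0.462 ± 0.519 and 0.0901 ± 0.140. The SD was above the mean for each, and no neighbours among the first 5 differed beyond their spread. Within the 8 GFP-negative libraries of HH14 and HH16, ENSGALG00000023740 was above ENSGALG00000017347 per kilobase in 8. ENSGALG00000017347 was above ENSGALG00000035309 in 8, ENSGALG00000035309 above ENSGALG00000043234 in all but WE_16 replicate 1, the opposite of their order by the HH16 means, and ENSGALG00000043234 above ENSGALG00000031597 in 8.

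In the 8 GFP-positive libraries of these stages the order was in part another. ENSGALG00000017347 was above ENSGALG00000035309 in all 8, and ENSGALG00000043234 was above ENSGALG00000031597 in all 8. ENSGALG00000035309 was above ENSGALG00000043234 in 6. ENSGALG00000023740 was below ENSGALG00000017347 in 5 of the 8, the opposite of the order in every GFP-negative library. Whether the fractions differ in this order was not tested.

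The make-up of the beta-locus reads was different before and after HH12. From HH6 to HH10, ENSGALG00000035309 held 524 of 583 beta-locus reads over the 18 libraries of both fractions, or 89.9% (95% exact Clopper-Pearson interval 87.1 to 92.2), and ENSGALG00000017347 held 56, or 9.61% (7.34 to 12.3). At HH14 and HH16 ENSGALG00000035309 held 199020 of 490494 reads, or 40.6% (40.4 to 40.7), and ENSGALG00000017347 held 288815, or 58.9% (58.7 to 59.0). Intervals here cover counting error only. In the 16 libraries of HH14 and HH16 the share of ENSGALG00000017347 lay between 55.1% and 69.6%. In the 11 earlier libraries with 20 or more beta-locus reads it lay between 0% and 50%, below all of them. The 50% was in WE_10 replicate 4, with 12 of 24 beta-locus reads on ENSGALG00000017347 and 11 on ENSGALG00000035309. Below the minimum of 20 reads, NC_10 replicate 2 went the other way, with 8 of 10 beta-locus reads on ENSGALG00000017347 and 2 on ENSGALG00000035309. The change of ENSGALG00000017347 chose the locus, so that the shift is a description.

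**Figure D4:**
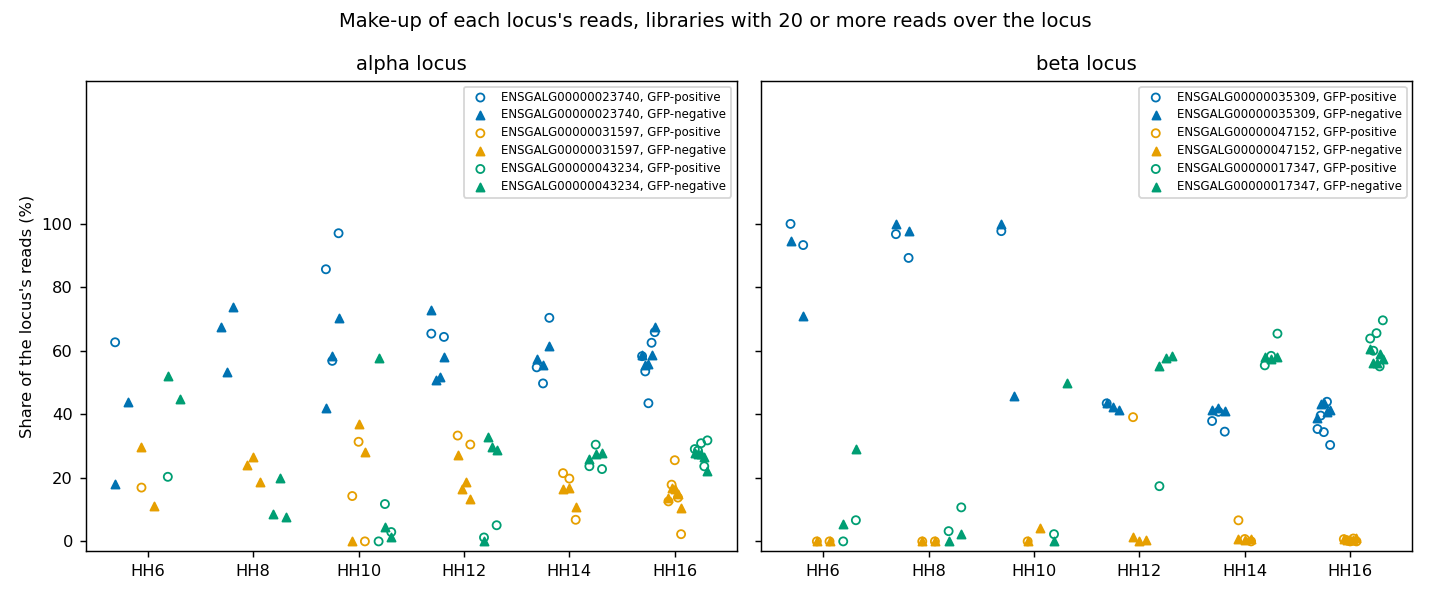
Share of the reads of each locus, in percent, that fell on each tested gene, by stage, in libraries with 20 or more reads over the locus; open circles are GFP-positive and filled triangles GFP-negative libraries. In the beta locus ENSGALG00000035309 holds most reads up to HH10 except in WE_10 replicate 4, and from HH12 in GFP-negative cells and HH14 in both fractions ENSGALG00000017347 holds more, while the alpha-locus shares spread widely early and narrow at HH14 and HH16.

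The late make-up was already present in GFP-negative cells at HH12. In the 3 libraries of that group with enough reads, ENSGALG00000017347 held 55.1% to 58.3% of beta-locus reads and ENSGALG00000035309 held 41.2% to 43.6%, although their summed globin level ranged from 27.2 to 870.7 CPM. GFP-positive cells at HH12 had 41 beta-locus reads in 4 libraries. Of these, 24 fell on ENSGALG00000035309, 8 on ENSGALG00000017347 and 9 on ENSGALG00000047152, and all 9 came from 1 library.

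Summed over libraries, the leading alpha-locus gene was the same before and after HH12. ENSGALG00000023740 held 58.7% (95% interval 56 to 61.4) of 1286 alpha-locus reads from HH6 to HH10 and 56.9% (56.8 to 57.0) of 765796 reads at HH14 and HH16. ENSGALG00000031597 held 22.4% (20.1 to 24.8) early and 15.4% (15.3 to 15.5) late, and ENSGALG00000043234 18.9% (16.8 to 21.1) and 27.7% (27.6 to 27.8). The early share of ENSGALG00000043234 varied strongly between libraries, from 0% to 57.8% over the 12 libraries with 20 or more alpha-locus reads. It was ahead of ENSGALG00000023740 in 3 of these 12, all GFP-negative. It took 40 of 77 alpha-locus reads in WE_6 replicate 2, where ENSGALG00000023740 took 14, and 40 of 89 in WE_6 replicate 3, where ENSGALG00000023740 took 39. At HH10 in GFP-negative cells it took 59 of 102 alpha-locus reads in replicate 2 and 7 of 159 and 2 of 142 in replicates 3 and 4. WE_6 replicate 3 and WE_10 replicate 2 were also among the 3 kept libraries with the fewest genes at 10 or more reads, at 11379 and 11421. Late shares of the same gene lay between 22.1% and 31.8%.

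Between HH14 and HH16 the make-up of both loci in GFP-negative cells differed by less than the spread between libraries. The mean share of ENSGALG00000017347 was 57.8 ± 0.387% at HH14 (SD, n = 3) and 57.9 ± 1.92% at HH16 (n = 5), a difference of 0.0813 percentage points (exact two-sided permutation test, p = 0.982). ENSGALG00000035309 stood at 41.5 ± 0.579% and 41.5 ± 1.99% (exact permutation p = 1.0). In the alpha locus ENSGALG00000023740 stood at 58.2 ± 3.01% and 59.3 ± 4.78% (exact permutation p = 0.804). ENSGALG00000031597 stood at 14.7 ± 3.40% and 14.5 ± 2.55%, and ENSGALG00000043234 at 27.1 ± 0.995% and 26.3 ± 2.41% (exact permutation p = 0.839 and 0.786). All 8 members gave p-values of 0.304 or above and 1.0 after Benjamini-Hochberg adjustment over the 8 tests; with 56 arrangements the smallest p possible was 0.0179. Over the same libraries the summed globin level ranged from 226.4 to 28970 CPM. Shares are bounded and levels are not, so that their spreads are unlike measures.

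Within the 8 late pools, the shares of GFP-positive and GFP-negative libraries differed by up to 12.1 percentage points upward and -12.4 downward. ENSGALG00000017347 had the higher share in the GFP-positive library in 6 of 8 pools, with a median difference of 3.58 points, and ENSGALG00000035309 the lower share in 7 of 8, with a median of -3.56 points. For ENSGALG00000031597 the pools split 4 to 4. These differences were not tested.

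The ratio of the loci is given for libraries with many beta-locus reads, because a ratio over few reads spreads by counting error alone. In the 19 libraries with 100 or more beta-locus reads, all from HH12 or later, there were 0.809 to 1.93 alpha-locus reads per beta-locus read, with a median of 1.30. GFP-negative libraries of HH16 had 1.27 to 1.87 and GFP-positive ones 0.809 to 1.93.

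The genes whose levels most resembled the globin genes over the 42 libraries were the same for both loci. ENSGALG00000039978 (chromosome 27, 5419090 to 5434440) correlated with the summed level of the alpha locus with a Pearson r of 0.942, and with the beta locus with 0.944, over log2(CPM + 1). It stood at 0.0671 ± 0.0583 CPM (SD, n = 3) in GFP-negative cells at HH10, 211.7 ± 303.1 CPM (n = 5) at HH16 and 14.2 ± 14.6 CPM (n = 5) in GFP-positive cells at HH16. ENSGALG00000033428 (chromosome 2, 122624567 to 122638462) followed with r of 0.840 and 0.826, at 0.451 ± 0.394 CPM and 48.6 ± 88.5 CPM in GFP-negative cells at HH10 and HH16. ENSGALG00000039978 was the 1 gene outside the loci with an r above 0.9. The 42 libraries share stages and pools and are not independent points, so that these values are descriptions.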

How the data were processed

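Polyadenylated RNA of sorted GFP-positive and GFP-negative chick head cells was sequenced with a stranded kit, per the labels' protocols. The submitters' processing notes name bcl2fastq, cutadapt 2.10, HISAT2 2.1.0 and SAMtools 1.9. The authors deposited raw read counts of genes, which per the file headers come from featureCounts 1.6.2 run over exons of an Ensembl GRCg6a annotation, with the option for reverse-stranded libraries. That command sets no option for reads that fit several places or genes, so such reads were not counted. The deposited gene length, in bases, was used only for levels per kilobase. Coordinates are the authors', counted from 1.

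The authors' filtered table of 42 libraries, which the series' design text says leaves out low quality samples, holds the same counts as the full table of 50. Groups came from the labels. Genes were filtered with filterByExpr by group, which left 15737 and removed 8619. Counts were scaled with TMM and fitted for all 12 groups together with edgeR 4.0.16 (robust quasi-likelihood F test), with Benjamini-Hochberg adjustment over all tested genes and a threshold of 0.05. The edgeR fit gives no standard error, so errors were taken as the absolute log2 fold change divided by the square root of F. The error of a DESeq2 value is DESeq2's own. CPM use TMM-scaled library sizes. Shares of a locus's reads used libraries with 20 or more reads over it, and an exact permutation test over libraries. A count of 0 allows up to 3 counts, for counting error only. The tests were tried on simulated data. For edgeR these gave all genes the same dispersion, so that they do not show how the test behaves on genes as variable as the members. The within-group SD of log2 CPM was 2.3 for ENSGALG00000023740 and 3.08 for ENSGALG00000017347. Alternatives were limma 3.58.1 (voom), DESeq2 1.42.0 and its size factors, TMM without the globin genes, no filter or 1 CPM in 3 libraries, all 50 libraries, GFP-negative groups only, the set number as a covariate, the pool as a block, length-scaled shares, a minimum of 100 reads for shares, and leaving out single libraries. Leaving out the 3 libraries with the fewest detected genes was added after the data were seen.

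The members and lists were chosen with earlier results of these data known. Every member is named; outside the loci, the nearest genes on each side and the 2 genes most correlated with each locus are named. Red cell and other marker lists were not tested, because 0 of the 24356 identifiers could be paired with a symbol. The titles pair the libraries of a pool. In 16 of 19 pools the paired libraries' deviations from their group means correlated above 0.1, with a range of -0.0545 to 0.575. Libraries of different pools were not compared, and in 17 pools the partners share a set number. This check therefore cannot decide whether the titles' pairing holds.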

Additional observations from a re-analysis of the deposited data

Results flagged for a closer look

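WE_16 replicate 1 lay far above the other 4 GFP-negative libraries of HH16 for all 6 tested members. It held 11053 CPM of ENSGALG00000023740, 2579 CPM of ENSGALG00000031597, 5237 CPM of ENSGALG00000043234, 3913 CPM of ENSGALG00000035309, 68.95 CPM of ENSGALG00000047152 and 6118 CPM of ENSGALG00000017347. ENSGALG00000047152 also had 1 library far above the rest in NC_12 (replicate 3, 0.416 CPM), WE_12 (replicate 5, 1.78 CPM) and NC_16 (replicate 2, 5.16 CPM). The check covered 24 pairs of a member and a group of 4 or 5 libraries and marked 9. How often chance marks such groups was not measured for these skewed CPM, and the members of one library are not independent of each other.

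Low members had reads in libraries that the authors did not keep. NC_6 replicate 4, with 512123 counted reads in all, held 4 reads of ENSGALG00000047152 and 7 reads of ENSGALG00000028273, although both had 0 reads in the kept NC_6 libraries. NC_8 replicate 4 held 10 reads of ENSGALG00000052767, which had 0 reads in the kept NC_8 libraries.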

How the results depend on the processing

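All 6 log2 fold changes from HH10 to HH16 in GFP-negative cells stayed positive in every alternative run. The count of members passing in that comparison was 6 in edgeR, 1 with voom, 3 when the 3 kept libraries detecting the fewest genes were left out, and 1 to 6 with single libraries left out; DESeq2, its size factors, TMM without the globin genes and all 50 libraries left it within 1.5 times. ENSGALG00000043234 missed the threshold with GFP-negative groups alone (adjusted p = 0.0503), and ENSGALG00000047152 with no filter (0.0602) and with the set number as a covariate (0.131). The count of all genes called from HH10 to HH16 was 770 in edgeR, 392 with all 50 libraries, 1233 with the set covariate, 1396 with DESeq2 and 371 to 714 with single libraries left out. From HH6 to HH8 it was 9, against 0 with all 50 libraries, 34 with GFP-negative groups only, 48 with the set covariate, 43 with DESeq2, 14 without those 3 libraries and 0 to 22 with single libraries left out. From HH8 to HH10 it was 4, against 0, 10, 10, 124, 25 and 1 to 16 in the same order, and 30 with voom. From HH10 to HH12 it was 0, against 9 with voom, 17 with DESeq2 (1 of them a member) and 0 to 10 with single libraries left out. From HH14 to HH16 it was 153, against 63 with all 50 libraries, 393 with the set covariate, 445 with voom, 354 with DESeq2 and 49 to 169 with single libraries left out. The cause of these shifts was not tested.

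From HH14 to HH16 the members' log2 fold changes turned negative without WE_16 replicate 1, WE_14 replicate 1 or WE_14 replicate 3. Their ranges with single libraries left out were -1.22 to 4.23 for ENSGALG00000023740, -1.32 to 4.52 for ENSGALG00000031597, -1.30 to 4.30 for ENSGALG00000043234, -1.11 to 3.89 for ENSGALG00000035309, -1.36 to 3.44 for ENSGALG00000047152 and -1.15 to 3.96 for ENSGALG00000017347. With the set covariate ENSGALG00000047152 turned to -0.0822. The differences in share from HH14 to HH16, in percentage points, ranged from -0.942 to 2.76 for ENSGALG00000023740, -2.22 to 0.740 for ENSGALG00000031597, -1.41 to 0.212 for ENSGALG00000043234, -0.465 to 0.729 for ENSGALG00000035309 and -0.589 to 0.530 for ENSGALG00000017347.

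With the pool as a replicate block, the mean difference between fractions was -3.36 for ENSGALG00000023740, -3.67 for ENSGALG00000031597, -4.89 for ENSGALG00000043234, -2.43 for ENSGALG00000035309 and -3.67 for ENSGALG00000017347, against -3.28, -2.98, -4.34, -2.35 and -2.75 without it. Few reads before HH12 limit what can be said of single members there.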

Other observations

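Globin reads in the 8 libraries that the authors did not keep ranged from 27 to 716. WE_12 replicate 4 held 716 globin reads, or 46.7 CPM of counted reads without TMM scaling. This lies within the 2.24 to 919.3 CPM of the kept WE_12 libraries on the same unscaled measure. WE_10 replicate 1 held 273 globin reads, 250 of them on the alpha locus. Unscaled, this was 34.2 CPM, above the 8.98 to 17.99 CPM of the kept WE_10 libraries. On the same scale NC_6 replicate 4, with 33 globin reads of 512123, stood at 64.4 CPM, above the 1.31 to 8.10 CPM of the kept NC_6 libraries. NC_8 replicate 4 held 31, or 9.57 CPM, above the kept NC_8 libraries at 1.94 to 2.68 CPM. WE_6 replicate 4 held 111, or 4.05 CPM, and WE_8 replicate 4 held 30, or 1.34 CPM, below the kept WE_8 libraries at 4.54 to 15.95 CPM. NC_10 replicate 3 held 27, or 1.46 CPM, and NC_12 replicate 5 held 53, or 2.70 CPM.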
